A study of Mus musculus with 19 samples.

Results

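The genes described here encode the proteasome: the subunits of its core, of its regulatory cap and of its other activators, and the factors that assemble them. They were taken as all genes whose symbol in the platform annotation begins with Psma, Psmb, Psmc, Psmd, Psme, Psmf or Psmg, leaving out Psmb5, which is not analysed here. The annotation held 39 such genes, read by 61 probes, and 38 of them passed the filter on low values, which asked for a detection p below 0.05 on 5 or more arrays, out of 10831 genes and unnamed probes that did so (called genes below). Psmd2, a base subunit of the cap, did not pass. Psme3ip1 matches by its symbol alone and encodes a protein that binds the activator encoded by Psme3, so 37 of the 38 are proteasome genes in the strict sense. Liver RNA of 10-month-old mice was read on Illumina BeadChips, which measure 1 colour and carry gene-specific probes on beads. There were 5 Mat1a knockout (KO) livers after SAMe, 6 KO livers after placebo and 8 wild-type (WT) livers after placebo, treated for 8 weeks. Mat1a encodes the enzyme of the adult liver for S-adenosylmethionine (SAMe), the main methyl donor of the cell, and SAMe was also the agent given. The labels give 1 animal ID per array, no WT group on SAMe, and neither the sex of the mice nor the way in which the gene was disrupted.

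The proteasome degrades proteins that have been tagged with ubiquitin. Its core particle is a barrel of stacked rings: the outer rings are built of alpha subunits, which gate the entry, and the inner rings of beta subunits, some of which carry the protease sites. The regulatory particle caps the barrel, and its base holds a ring of ATPases that unfold the substrate while its lid removes the ubiquitin chain. In cells exposed to interferon the protease subunits are replaced by those of the immunoproteasome, encoded by Psmb8, Psmb9 and Psmb10, and the activator PA28, encoded by Psme1 and Psme2, binds the barrel instead of the cap. When proteasome activity is short, the transcription factor NFE2L1 raises the transcription of proteasome genes together, and it acts through a DNA motif named the antioxidant response element (ARE).

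Promoter sequence was available for 31 of the measured genes, in 34 windows from RefSeq (GRCm38.p6) that run from 250 bases before a gene's start to 50 after it. Each was searched on both strands for the core of the ARE, TGACNNNGC, and for the core of the interferon-stimulated response element (ISRE), GAAA-NN-GAAA, letters that do not overlap each other. The 4 windows shown, cut to 30 bases after the start, belong to the genes on which the results turn: Psma7, which had the lowest fitted change in KO placebo livers, Psmb6, a protease subunit, Psme1, a subunit of PA28, and Psme3, an activator that went the other way. Capitals mark a motif match.
Psma7, chr2:180042435-180042714, minus strand: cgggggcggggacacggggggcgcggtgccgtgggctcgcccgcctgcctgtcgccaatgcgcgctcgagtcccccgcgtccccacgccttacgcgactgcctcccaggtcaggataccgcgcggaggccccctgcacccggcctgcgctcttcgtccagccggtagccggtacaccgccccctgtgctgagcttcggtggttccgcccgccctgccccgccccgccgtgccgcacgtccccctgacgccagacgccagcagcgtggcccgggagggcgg
Psmb6, chr11:70525107-70525386, plus strand: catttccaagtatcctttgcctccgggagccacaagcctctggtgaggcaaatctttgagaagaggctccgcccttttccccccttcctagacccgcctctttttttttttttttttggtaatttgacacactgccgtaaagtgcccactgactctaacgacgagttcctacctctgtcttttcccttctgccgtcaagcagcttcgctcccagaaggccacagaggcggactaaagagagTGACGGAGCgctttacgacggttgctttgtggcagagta
Psme1, chr14:55578244-55578523, plus strand: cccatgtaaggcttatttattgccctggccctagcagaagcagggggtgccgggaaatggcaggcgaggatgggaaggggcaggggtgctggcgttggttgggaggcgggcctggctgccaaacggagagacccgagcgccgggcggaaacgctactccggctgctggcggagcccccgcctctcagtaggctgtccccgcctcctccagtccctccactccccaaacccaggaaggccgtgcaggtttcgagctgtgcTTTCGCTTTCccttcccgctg
Psme3, chr11:101315963-101316242, plus strand: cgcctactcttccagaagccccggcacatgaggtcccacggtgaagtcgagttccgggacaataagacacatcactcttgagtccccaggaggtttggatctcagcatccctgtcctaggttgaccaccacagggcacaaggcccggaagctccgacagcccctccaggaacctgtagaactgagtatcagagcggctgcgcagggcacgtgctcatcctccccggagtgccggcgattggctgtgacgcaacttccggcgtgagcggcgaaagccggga
Psmb6 carried 1 ARE match, TGACGGAGC, whose first base lies at position -9 from the start. In Psme1 the match was to the ISRE, on the opposite strand, where the printed letters read TTTCGCTTTC from position 10 after the start. The windows of Psma7 and Psme3 held no ARE match. Over all windows of the measured genes, 4 of 34 (11.8%) held an ARE match, those of Psmb6, Psmd9, Psmd12 and Psme4, against 12.4% of 32851 promoters of the same length in the table. For the ISRE the count was also 4 of 34 (11.8%), at Psmb3, Psmd4, Psmd9 and Psme1, against 3.44% of all promoters. A match in these windows describes the letters and does not show binding.

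Values are log2 intensities after background correction and quantile normalization, and a change is the difference of 2 group means on that scale, with its standard error (SE) from limma. Mat1a read 9.52 ± 0.31 in KO placebo livers (SD, n = 6) and 12.1 ± 0.14 in WT livers (SD, n = 8), with 9.64 ± 0.12 in KO SAMe livers (SD, n = 5). Background split the arrays into 2 sets that the labels do not mention: the median raw signal was 93.6 to 100 on 5 arrays, which were 4 of the KO placebo arrays and 1 WT array, and 75.1 to 85.8 on the other 14. Between 25.5% and 31.8% of the probes were detected per array. Of 10 hepatocyte markers 9 were measured, and their mean log2 per array was 10.08 to 10.24 in KO SAMe, 9.94 to 10.28 in KO placebo and 9.90 to 10.30 in WT livers. Of 18 genes listed as leukocyte markers (T, B and NK cells) only 7 were measured, with means of 5.37 to 5.70, 5.30 to 5.95 and 5.40 to 5.97 in the same order. Ptprc, which marks all leukocytes, was not among them. For macrophages and dendritic cells 12 of 17 were measured, with means of 5.59 to 6.14 in KO SAMe, 5.86 to 6.62 in KO placebo and 5.59 to 6.56 in WT livers. Some markers moved apart in KO placebo against WT livers. At an adjusted p under 0.05 in limma Hnf4a was higher (0.98) and Alb lower (-0.60) among the hepatocyte markers. Among the leukocyte markers Laptm5 was higher (1.19), and Cd79b, Cd3d and Cd52 were lower (-0.49 to -0.39). Cd74 was higher (1.75) and Clec4f lower (-0.68) among the markers of macrophages and dendritic cells. The shares over all genes were 19.8% higher and 20.4% lower. Some of these probes were dim. Alb had a mean log2 of 6.36 over all arrays, against 13.3 for Apoa1 and 12.5 for Ttr. Cd79b was detected on 0 of 6 KO placebo and 7 of 8 WT arrays, and Cd3d on 2 of 6 and 8 of 8.

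The comparison of KO placebo with WT livers asks what 10 months without Mat1a does to these genes. Most of the measured core genes were lower in KO placebo livers: of 11 alpha and constitutive beta genes 9 fell and 0 rose, with a median log2 change of -0.39. Both PA28 genes and 2 of 3 immunoproteasome genes also fell, whereas in the regulatory particle 3 of 13 fell and 1 rose, with a median of -0.08. Neither particle was measured in full. Of the listed genes, 5 of 8 alpha genes were measured (Psma8 among them, but not Psma1, Psma3 or Psma6). The same held for 5 of 6 base ATPases, 2 of 3 other base genes and 6 of 8 lid genes. Among all 38 genes 19 fell and 2 rose at an adjusted p under 0.05 in limma, against 20.4% lower and 19.8% higher among all genes (40.2% in either direction). Their median change was -0.23, with a range from -0.91 to 0.57, and the median of all genes was 0.01. In 11 of them every KO placebo array lay below every WT array, against 8.53% of all genes, and in 0 above, against 8.12%. Fewer cells of a type and less RNA per cell cannot be told apart in bulk liver.

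**Figure D1:**
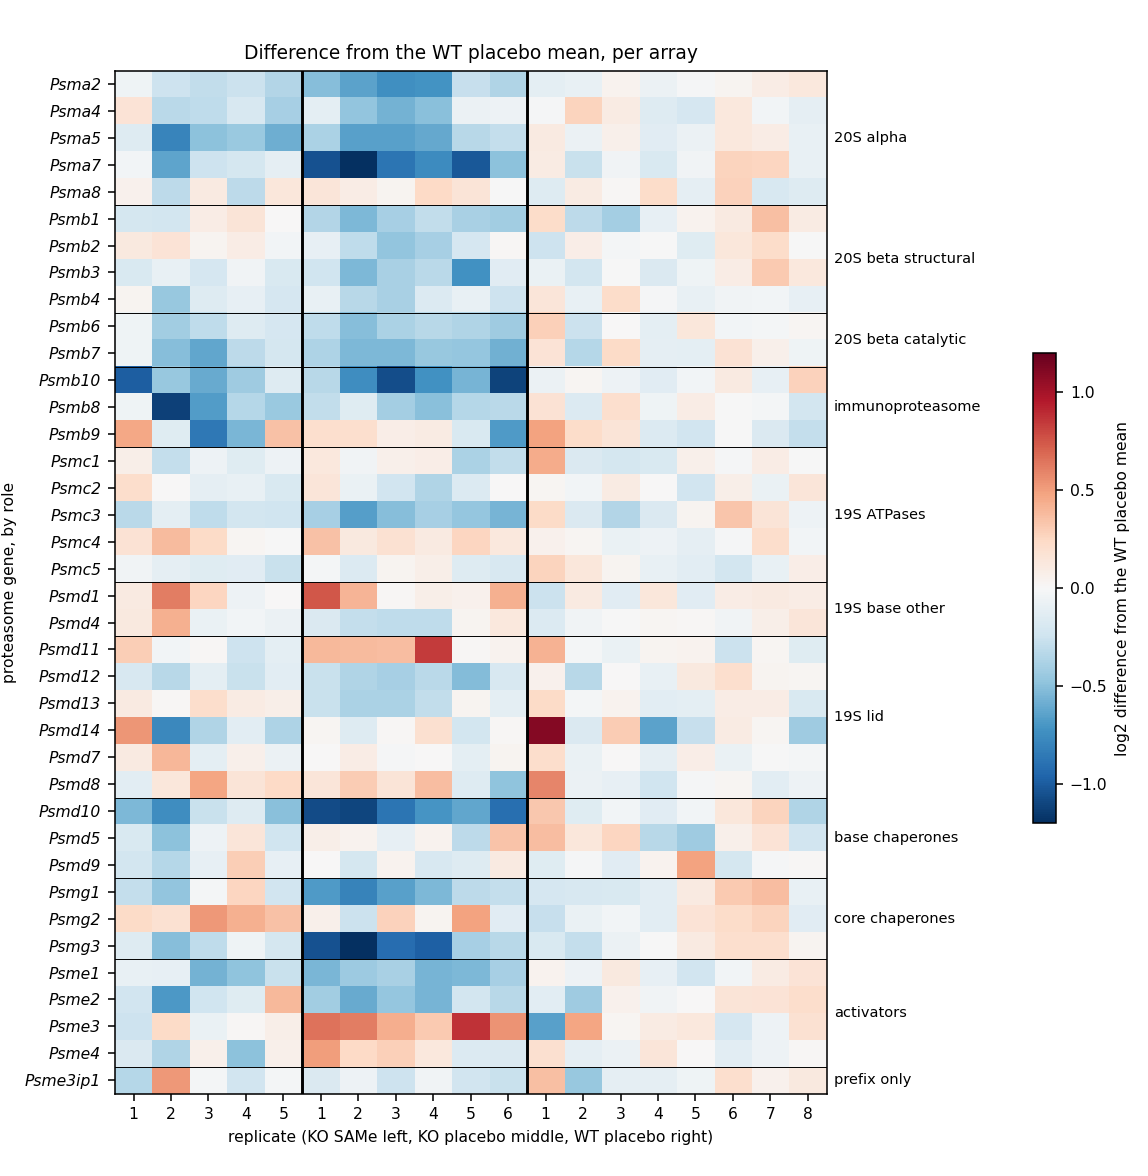
Log2 difference of each measured gene from its WT placebo mean (colour) on every array (columns, KO SAMe left, KO placebo middle, WT placebo right), with genes in rows by role. Blue fills most alpha, beta and PA28 rows of the KO placebo columns, and the rows of the regulatory particle are paler, with Psmc3 blue and Psmd11 mostly red there.

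Of the 5 measured alpha genes 4 fell, against 20.4% of all genes. Psma7, an alpha-ring subunit, read 8.97, 9.28 and 9.74 (lowest, median and highest) in KO placebo livers and 9.96, 10.19 and 10.50 in WT livers. The groups did not overlap, and the change was -0.91 (SE 0.12, adjusted p = 4.1e-06 in limma), or 1.88-fold lower. A second Psma7 probe gave -0.94. Psma2, also of the alpha ring, read 10.44, 10.60 and 10.90 in KO placebo livers and 11.06, 11.19 and 11.31 in WT livers, a change of -0.54 (SE 0.09, adjusted p = 2.9e-05 in limma). For Psma5 the values were 10.38, 10.54 and 10.75 in KO placebo livers against 10.90, 11.03 and 11.16 in WT livers, and the change was -0.49 (SE 0.10, adjusted p = 0.00032 in limma). In both genes, too, the lowest WT array was above the highest KO placebo array. Psma4 overlapped between the groups and changed by -0.30 (adjusted p = 0.034 in limma); this call was lost without any 1 of KO placebo arrays 2, 3 and 4 or WT arrays 2, 3 and 6, with adjusted p from 0.057 to 0.098, and in a fit blocked on the background set (-0.18, adjusted p = 0.28). Psma8, an alpha subunit known from the testis, was near background, being detected on 6 of 6 KO placebo and 4 of 8 WT arrays, and changed by 0.11 (adjusted p = 0.43).

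The beta ring was lower as well. Psmb7, a protease subunit that cuts after basic residues, read 9.41, 9.49 and 9.62 in KO placebo livers and 9.65, 9.99 and 10.22 in WT livers, a change of -0.49 (SE 0.10, adjusted p = 0.00045 in limma). Its 4 probes all went down, by log2 changes of -0.49 to -0.79. Psmb6, the protease subunit that cuts after acidic residues and whose promoter carries the ARE match shown above, read 9.57, 9.71 and 9.77 in KO placebo livers and 9.82, 10.06 and 10.36 in WT livers. It changed by -0.38 (SE 0.08, adjusted p = 9e-04 in limma), and as in Psmb7 the arrays of the groups did not overlap. Among the structural subunits, which carry no protease site, Psmb1 read 9.66, 9.81 and 9.91 in KO placebo livers and 9.79, 10.27 and 10.56 in WT livers, a change of -0.40 (SE 0.11, adjusted p = 0.0052 in limma). Psmb3 read 9.24, 9.61 and 9.83 in KO placebo livers and 9.74, 9.94 and 10.28 in WT livers, a change of -0.39 (SE 0.10, adjusted p = 0.0026 in limma). The arrays of both overlapped slightly. Psmb2 changed by -0.24 (adjusted p = 0.034 in limma), a call lost without any 1 of KO placebo arrays 2, 3 and 4 or WT arrays 2, 6 and 7 (adjusted p 0.053 to 0.10) and when blocked on the background set (-0.11, adjusted p = 0.40). Psmb4, at -0.22, did not pass (adjusted p = 0.051), and passed without KO placebo array 1 or 5 or WT array 8 (adjusted p 0.039 to 0.049).

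Of the 3 immunoproteasome genes 2 fell, against 20.4% of all genes, and differences between the 3 were not tested. Psmb10, which takes the place of Psmb7 in the immunoproteasome, read 7.57, 7.95 and 8.35 in KO placebo livers and 8.55, 8.63 and 8.96 in WT livers. No KO placebo array reached the WT arrays, and the change was -0.76 (SE 0.13, adjusted p = 5.2e-05 in limma), or 1.69-fold lower, with -0.95 at a second probe. Psmb8, the immunoproteasome counterpart of Psmb5, read 4.90, 5.07 and 5.26 in KO placebo livers and 5.18, 5.39 and 5.60 in WT livers. Its change was -0.34 (SE 0.12, adjusted p = 0.032 in limma), lost without any 1 of KO placebo arrays 3 and 4 or WT arrays 1, 3 and 5 (adjusted p 0.052 to 0.074), in a fit blocked on the background set (-0.37, adjusted p = 0.056) and after scaling every array to the median of all probes (0.02). Psmb9, the counterpart of Psmb6, read 6.48, 7.25 and 7.36 in KO placebo livers and 6.87, 7.07 and 7.64 in WT livers, a change of -0.05 (SE 0.19, adjusted p = 0.88). Blocked on the background set the Psmb9 change was -0.35 (adjusted p = 0.17), and among low-background arrays alone -0.36 (adjusted p = 0.39), so that in both settings the changes of all 3 genes were below 0. The mean of the 3 immunoproteasome genes minus the mean of Psmb6 and Psmb7, centred on WT, lay between -0.20 and 0.30 on the KO placebo arrays and between -0.11 and 0.33 on the WT arrays, so the groups overlapped.

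**Figure D2:**
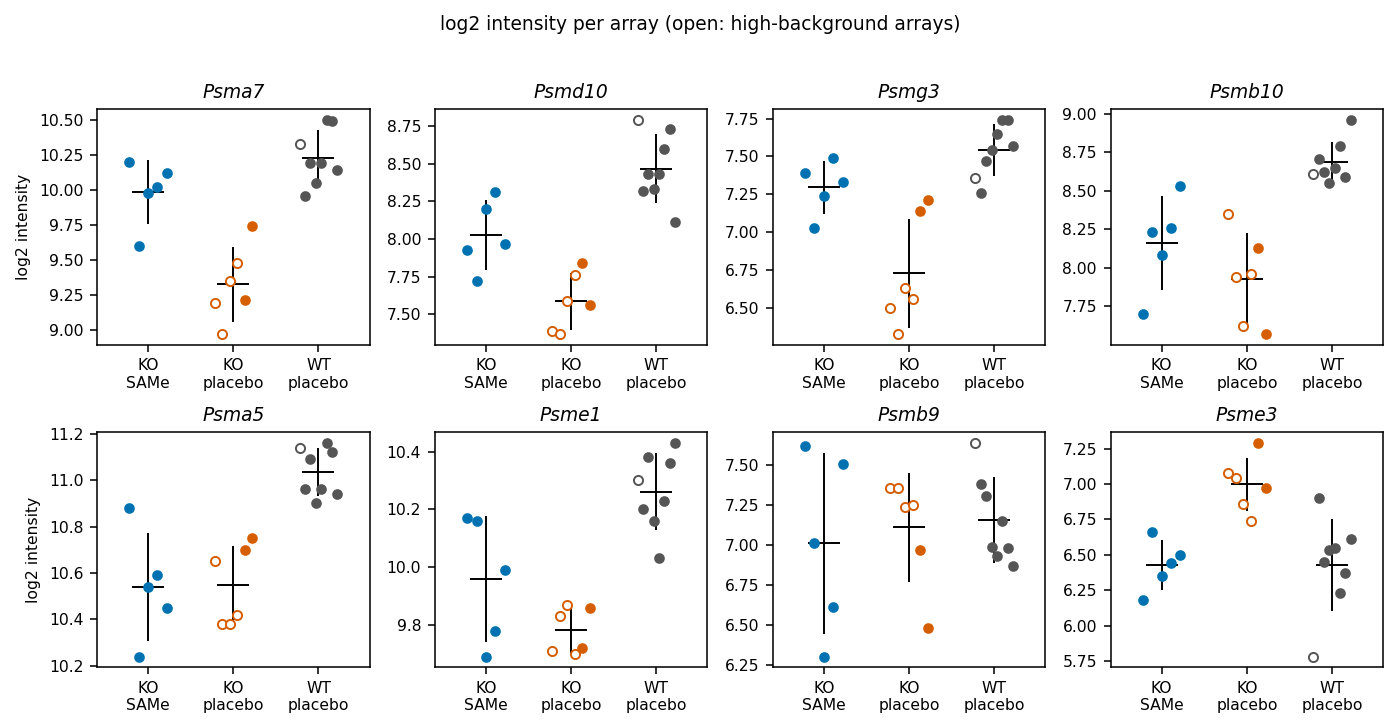
Log2 intensity of 8 genes (panels) on each array, with KO SAMe left, KO placebo middle and WT placebo right, bars at the mean ± SD, and open points for the arrays with high background. Psma7, Psmd10, Psmg3, Psmb10, Psma5 and Psme1 show KO placebo arrays below all WT arrays, Psmb9 shows overlap, and Psme3 is higher in KO placebo livers.

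The genes of the regulatory particle mostly did not pass. Psmc3, an ATPase of the base, was 8.36, 8.53 and 8.62 in KO placebo livers and 8.67, 9.0 and 9.35 in WT livers, without overlap, a change of -0.50 (SE 0.10, adjusted p = 0.00027 in limma). The other 4 measured ATPases changed by -0.11 (Psmc2), -0.08 (Psmc1), -0.08 (Psmc5) and 0.19 (Psmc4), with adjusted p from 0.062 to 0.63. Blocked on the background set Psmc1 passed as lower, at -0.31 (adjusted p = 0.011), and in the low-background arrays alone it was -0.27 (adjusted p = 0.15). Psmc4 read 9.39, 9.44 and 9.64 in KO placebo livers against 9.18, 9.26 and 9.50 in WT livers, and its adjusted p of 0.062 fell to 0.032 without WT array 7. The measured base subunits that are not ATPases did not pass either, Psmd4 at -0.15 (adjusted p = 0.22) and Psmd1 at 0.29 (adjusted p = 0.068, and 0.041 to 0.050 without KO placebo array 3, 4 or 5). Another, dimmer Psmd1 probe went the other way, at -0.41. In the lid Psmd12, a scaffold subunit, read 7.61, 7.79 and 7.94 in KO placebo livers and 7.80, 8.16 and 8.33 in WT livers, a change of -0.34 (SE 0.08, adjusted p = 0.0021 in limma). Psmd13 changed by -0.24 (adjusted p = 0.032 in limma), lost without any 1 of KO placebo arrays 1 to 4 or WT arrays 1, 3, 6 and 7 (adjusted p 0.051 to 0.086) and when blocked on the background set (-0.19, adjusted p = 0.15). Psmd11, another lid scaffold, was higher at 5.35, 5.71 and 6.18 in KO placebo livers, against 5.08, 5.34 and 5.76 in WT livers, a change of 0.34 (SE 0.12, adjusted p = 0.034 in limma). That rise was lost in a fit blocked on the background set (0.08, adjusted p = 0.62), without any 1 of KO placebo arrays 1 to 4 or WT arrays 3, 6 and 8 (adjusted p 0.054 to 0.12), and turned to -0.13 with the letter of the animal ID as a block. Psmd7, Psmd8 and Psmd14, the last being the enzyme that removes the ubiquitin chain, changed by 0.00, 0.06 and -0.02.

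Among the 6 measured assembly factors 3 fell, and 0 rose, against 20.4% lower and 19.8% higher among all genes. Psmd10, or gankyrin, a chaperone of the base that is also studied as an oncoprotein in liver, read 7.37, 7.58 and 7.84 in KO placebo livers and 8.11, 8.43 and 8.79 in WT livers. The groups did not overlap, with a change of -0.88 (SE 0.12, adjusted p = 4e-06 in limma), or 1.84-fold lower. Its 3 probes differed in size, at -0.88, -0.73 and -0.27, and the last 2 were dimmer. Psmg3, a chaperone of the alpha ring, read 6.33, 6.59 and 7.21 in KO placebo livers and 7.26, 7.56 and 7.74 in WT livers, a change of -0.81 (SE 0.13, adjusted p = 2.9e-05 in limma). The 2 KO placebo arrays with low background were its highest, and among low-background arrays alone the change was -0.39 (adjusted p = 0.066). Those 2 arrays also carry another letter in their animal ID (G) than the other KO placebo arrays (J). Background and letter cannot be told apart there. Psmg1, a partner of Psmg2 in the same step, read 6.20, 6.40 and 6.72 in KO placebo livers and 6.80, 6.89 and 7.37 in WT livers, a change of -0.54 (SE 0.12, adjusted p = 0.0013 in limma). Psmg2 itself changed by 0.07 (adjusted p = 0.65). The other base chaperones, Psmd5 at 0.01 and Psmd9 at -0.07, were near background.

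Of the activators, PA28 and PA28 gamma went opposite ways. Psme1, the alpha subunit of PA28, read 9.70, 9.77 and 9.87 in KO placebo livers and 10.03, 10.26 and 10.43 in WT livers, with no overlap. The change was -0.48 (SE 0.09, adjusted p = 0.00018 in limma), and -0.61 at a second probe. Psme2, the beta subunit, was dim and detected on 4 of 6 KO placebo and 8 of 8 WT arrays: it read 4.36, 4.53 and 4.74 in KO placebo livers and 4.54, 4.99 and 5.17 in WT livers, a change of -0.43 (SE 0.13, adjusted p = 0.0099 in limma). In a fit blocked on the background set it was -0.32 (adjusted p = 0.10). Both lie on chromosome 14, as does Mat1a, and are the 61st and 63rd measured genes from it among 287, so that a difference passed on with the altered Mat1a allele cannot be told apart from an effect of its loss. Psme3, which encodes the nuclear activator PA28 gamma, was higher at 6.74, 7.01 and 7.29 in KO placebo livers, against 5.78, 6.49 and 6.90 in WT livers. The change was 0.57 (SE 0.13, adjusted p = 0.0014 in limma), and 1 WT array overlapped the KO placebo range. Psme4, which encodes the activator PA200, changed by 0.14 (adjusted p = 0.37).

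Per array the core and the regulatory particle could be set side by side. The median over the 11 core genes, each centred on its WT mean, was -0.54 to -0.28 on the 6 KO placebo arrays and -0.11 to 0.13 on the 8 WT arrays. The same median over the 13 genes of the regulatory particle was -0.15 to 0.07 on the KO placebo arrays and -0.09 to 0.23 on the WT arrays. The groups were apart in the core and overlapped in the regulatory particle; the difference between the particles was not tested. Within the low-background arrays the core median was -0.33 and -0.28 on the 2 KO placebo arrays, against -0.11 to 0.13 on 7 WT arrays.

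**Figure D3:**
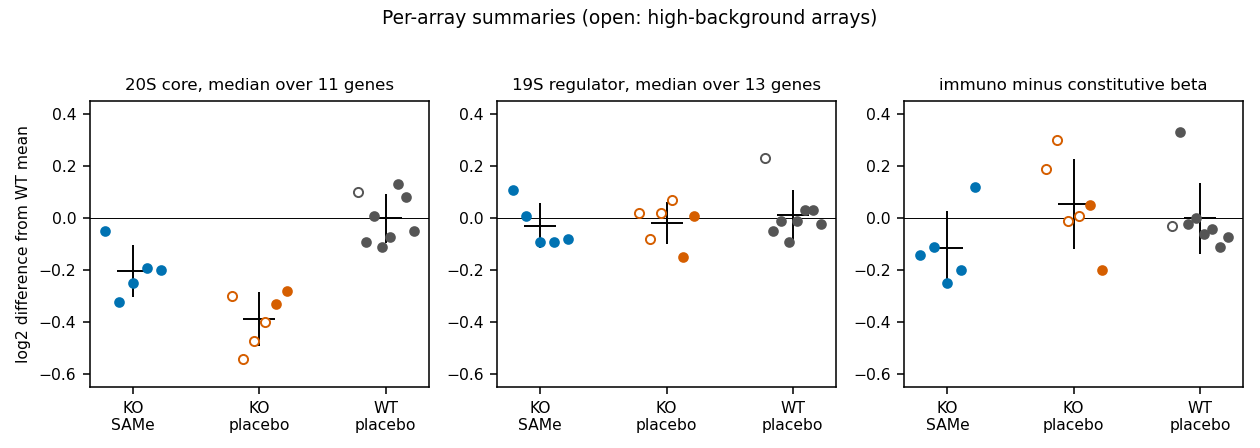
Median over the 11 core genes (left), median over the 13 genes of the regulatory particle (middle) and immunoproteasome minus constitutive protease subunits (right), as log2 differences from the WT mean on each array, with KO SAMe left, KO placebo middle and WT placebo right, bars at the mean ± SD and open points for high background. In the core all 6 KO placebo arrays lie at or below -0.28 and all 8 WT arrays at or above -0.11, and the other panels overlap.

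In the 14 low-background arrays alone 8 of the 38 genes passed (7 lower: Psma2, Psma7, Psmb7, Psmb10, Psmc3, Psmd10 and Psme1, and 1 higher: Psme3), against 18.3% of all genes, and in a fit blocked on the background set 16 passed (15 lower), against 36.2%. Scaling every array to the median of all probes moved the median of all genes to 0.18 and gave a split of 12 lower and 7 higher, against 9.12% lower and 37% higher among all genes. After scaling to the median of the detected probes, with all genes at -0.20, it was 23 lower and 2 higher, against 42.4% and 16.5%. Relative to all genes the median of the 38 was -0.29 under both scalings. In KO placebo livers the 4 high-background arrays carry the letter J in their animal ID and the 2 low-background arrays the letter G. Background set and letter thus cannot be told apart within that group. No KO placebo array shares the letter of its animal ID with a WT array, and with that letter as a block 0 of the 38 passed in limma (5 at an unadjusted p under 0.05), against 0.499% of all genes. The median of the 38 in that fit was -0.28, against -0.01 for all genes. The fit joins KO placebo to WT arrays only through KO SAMe arrays, of which array 3 alone shares a letter with KO placebo arrays. That limits its precision.

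Setting KO SAMe against KO placebo livers asks what SAMe does where its main enzyme is missing. Of the 38 genes 7 rose and 1 fell, against 10.8% higher and 7.69% lower among all genes. Those that rose were Psma2, Psma7, Psmb1 and Psmb2 of the core, Psmd13 of the lid and the chaperones Psmd10 and Psmg3, and the 1 that fell was Psme3. The median change was 0.13, against 0.00 for all genes. This comparison shares its KO placebo arrays with the last one, so a KO placebo array that reads low by chance lowers 1 comparison and raises the other.

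Psma7 read 9.60, 9.98, 10.02, 10.12 and 10.20 on the 5 KO SAMe arrays, against 8.97, 9.28 and 9.74 (lowest, median and highest) on the KO placebo arrays. Of the 5 KO SAMe arrays 4 lay above all KO placebo arrays, and the change was 0.66 (SE 0.13, adjusted p = 0.0022 in limma), or 1.58-fold higher. Psmg3 read 7.03, 7.24, 7.33, 7.39 and 7.49 in KO SAMe livers and 6.33, 6.59 and 7.21 in KO placebo livers, a change of 0.57 (SE 0.14, adjusted p = 0.009 in limma). Among low-background arrays it changed by 0.12 (adjusted p = 0.77), since the KO placebo arrays with low background read highest. For Psmd10 the KO SAMe values were 7.72, 7.93, 7.97, 8.2 and 8.31, against 7.37, 7.58 and 7.84 in KO placebo livers, and the change was 0.44 (SE 0.13, adjusted p = 0.023 in limma). Its other probes gave 0.13 and -0.20, and the call was lost without KO placebo array 1 or 2 or KO SAMe array 3 or 4 (adjusted p 0.058 to 0.075).

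In the other core genes the rises were smaller. Psmb1 read 9.98, 9.99, 10.21, 10.29 and 10.36 in KO SAMe livers and 9.66, 9.81 and 9.91 in KO placebo livers, without overlap, a change of 0.36 (SE 0.12, adjusted p = 0.041 in limma). Psmb2 read 10.81, 10.88, 10.94, 10.96 and 11.01 in KO SAMe livers and 10.37, 10.59 and 10.86 in KO placebo livers, a change of 0.32 (SE 0.10, adjusted p = 0.031 in limma). Psma2 read 10.83, 10.88, 10.92, 10.93 and 11.13 in KO SAMe livers and 10.44, 10.60 and 10.90 in KO placebo livers, a change of 0.30 (SE 0.10, adjusted p = 0.032 in limma). These 3 calls were each decided by single arrays. Psma2 lost its call without any 1 of KO placebo arrays 1 to 4 or KO SAMe arrays 1 and 4 (adjusted p 0.052 to 0.085), and Psmb2 without any 1 of KO placebo arrays 2, 3 and 4 or KO SAMe arrays 1, 2 and 4 (adjusted p 0.057 to 0.078). Psmb1 lost it without any 1 of KO placebo arrays 1, 2, 3, 5 and 6 or KO SAMe arrays 3, 4 and 5 (adjusted p 0.052 to 0.11). Psmd13, a lid subunit, read 10.49, 10.54, 10.57, 10.58 and 10.68 in KO SAMe livers and 10.09, 10.20 and 10.51 in KO placebo livers, a change of 0.33 (SE 0.10, adjusted p = 0.019 in limma, and 0.052 without KO placebo array 2). Psmc3, the ATPase, was 8.70 to 8.90 in KO SAMe livers, above the 8.36 to 8.62 of the KO placebo livers, and its change of 0.26 did not pass (adjusted p = 0.10). With Psmb1 it was 1 of 2 genes whose KO SAMe arrays all lay above the KO placebo arrays, against 5.15% of all genes.

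Psme3 went down on SAMe. It read 6.18, 6.35, 6.44, 6.50 and 6.66 in KO SAMe livers, all below the 6.74, 7.01 and 7.29 of the KO placebo livers, a change of -0.57 (SE 0.15, adjusted p = 0.01 in limma). It was the 1 gene of the 38 with such a separation downwards, against 3.81% of all genes. Blocked on the background set it changed by -0.85 (adjusted p = 0.0069), and among low-background arrays by -0.71 (adjusted p = 0.062). Psme4, the gene of PA200, changed by -0.32 and Psmd11 by -0.36 (adjusted p = 0.079 for each); Psme4 passed without KO placebo array 5 or 6, and Psmd11 without KO placebo array 5 or 6 or KO SAMe array 1 (adjusted p 0.037 to 0.044 over both).

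The protease subunits did not pass in either form. Psmb6 changed by 0.16 (SE 0.10, adjusted p = 0.27) and Psmb7 by 0.15 (SE 0.11, adjusted p = 0.40), and the 4 Psmb7 probes ranged from -0.10 to 0.55. Psmb10 read 7.70, 8.08, 8.23, 8.26 and 8.53 in KO SAMe livers and 7.57, 7.95 and 8.35 in KO placebo livers, a change of 0.23 (SE 0.14, adjusted p = 0.28). Psmb8 read 4.28, 4.73, 4.96, 5.06 and 5.35 in KO SAMe livers and 4.90, 5.07 and 5.26 in KO placebo livers, a change of -0.19 (adjusted p = 0.37). Psmb9 spread widely in KO SAMe livers, at 6.30, 6.61, 7.01, 7.51 and 7.62, against 6.48, 7.25 and 7.36 in KO placebo livers (change -0.10, adjusted p = 0.80). The PA28 genes changed by 0.18 (Psme1, adjusted p = 0.25) and 0.25 (Psme2, adjusted p = 0.26), and the chaperone gene Psmg1 by 0.39 (adjusted p = 0.054, and 0.028 to 0.037 without KO placebo array 5 or 6 or KO SAMe array 2).

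**Figure D4:**
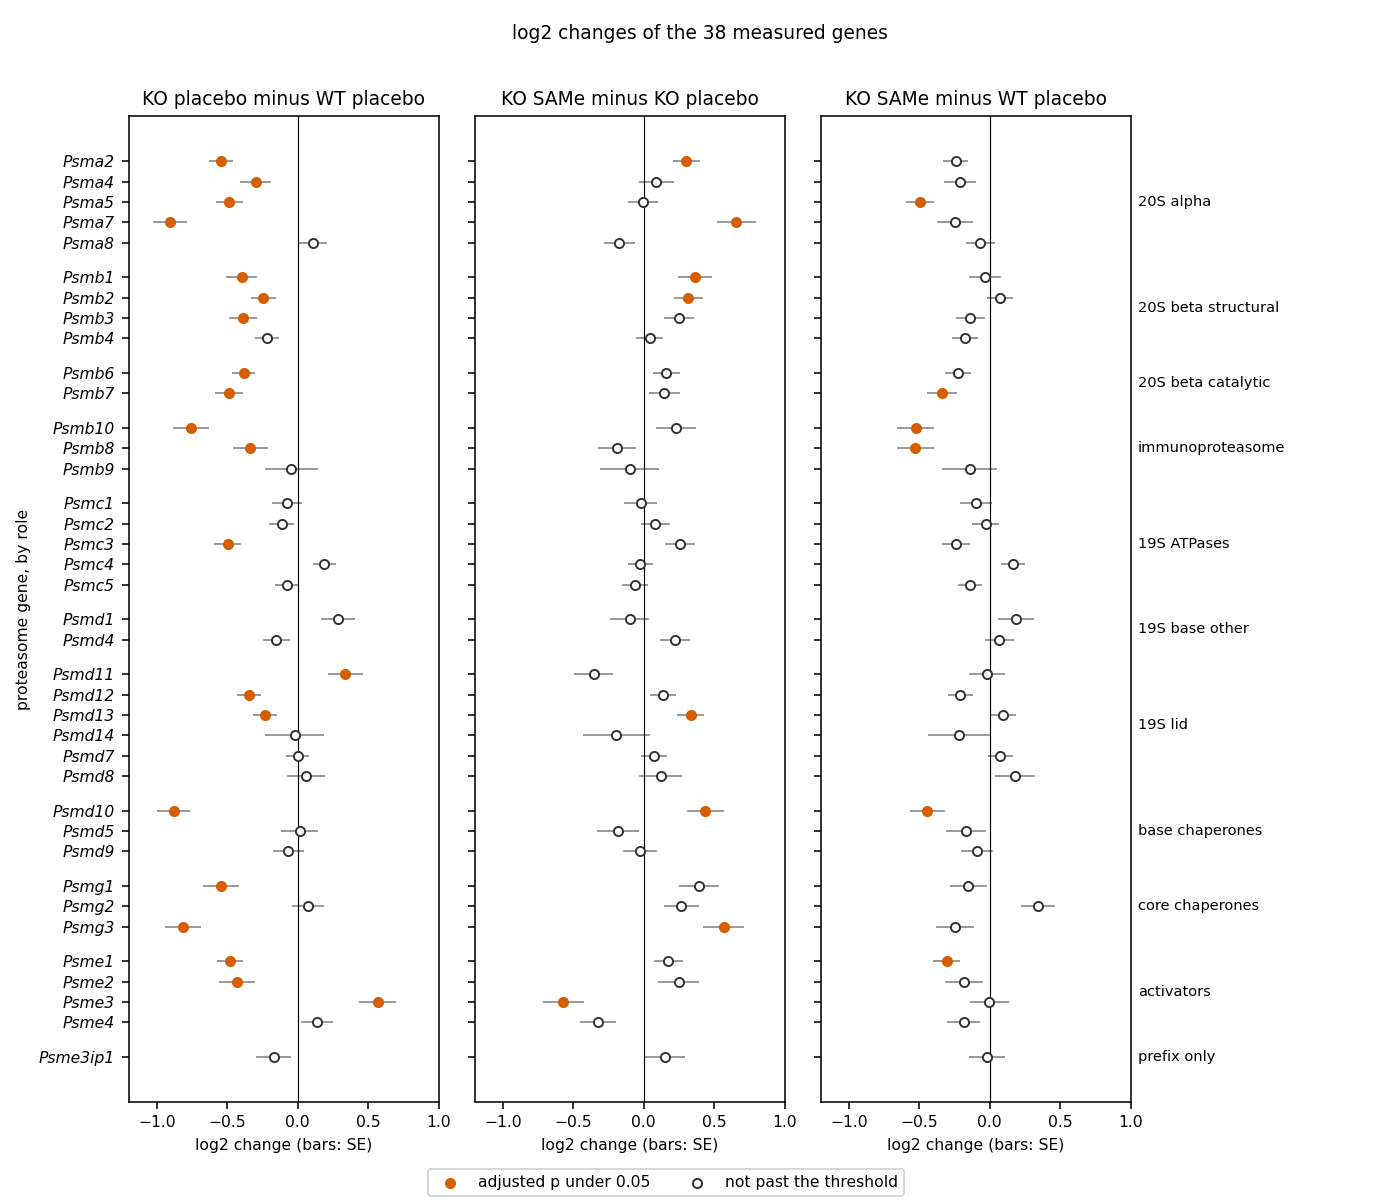
Log2 change (x axis, bars ± SE) of the 38 genes by role for KO placebo minus WT placebo (left), KO SAMe minus KO placebo (middle) and KO SAMe minus WT placebo (right), with filled points for an adjusted p under 0.05. Most filled points lie left of 0 in the left panel, 7 of 8 lie right of 0 in the middle panel, and all 6 lie left of 0 in the right panel.

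The calls changed with the arrays used and with the scaling. In limma 3 of the 38 passed when blocked on the background set (Psma7 and Psmd8 higher, Psme3 lower), against 9.26% of all genes, and 0 passed within the low-background arrays (3 at an unadjusted p under 0.05), against 0.702%, where only 2 KO placebo arrays remain. The 6 rises lost when blocked on the background set were 0.13 in Psma2, 0.15 in Psmb2, 0.24 in Psmg3, 0.28 in Psmd13, 0.43 in Psmb1 and 0.47 in Psmd10, with adjusted p from 0.073 to 0.45. With the letter as a block 0 passed in limma (2 at an unadjusted p under 0.05), against 0.00923%. That fit ties KO SAMe to KO placebo arrays by letter through KO SAMe array 3 alone, which limits its precision. Its median was 0.04, against 0.01 for all genes. Scaled to the median of all probes, which put the median of all genes at -0.21, the split was 1 higher and 6 lower, against 1.87% and 29.1% of all genes. Scaled to the detected probes, with all genes at 0.16, it was 12 higher and 2 lower, against 24.1% and 8.16%. Relative to all genes the median of the 38 was 0.07 under both scalings. Leaving out KO placebo array 2 left 3 calls, KO placebo array 1 or 3 left 5 each and KO SAMe array 4 left 4, against 8.

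The comparison of KO SAMe with WT livers asks what differed from WT after SAMe. Of the 38 genes 6 were lower and 0 higher, against 8.09% lower and 9.49% higher among all genes (17.6% in either direction), and the median change was -0.15, against 0.00 for all genes. The 6 were Psma5, Psmb7, Psmb8, Psmb10, Psmd10 and Psme1, and 3 of them belong to the 5 genes of the immunoproteasome and PA28. None of the 13 genes of the regulatory particle passed in limma at an adjusted p under 0.05.

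Psmb10 read 7.70, 8.08, 8.23, 8.26 and 8.53 in KO SAMe livers, below the 8.55, 8.63 and 8.96 of the WT livers. The change was -0.53 (SE 0.13, adjusted p = 0.0085 in limma). Psmb8 read 4.28, 4.73, 4.96, 5.06 and 5.35 in KO SAMe livers, where it was detected on 4 of 5 arrays, and 5.18, 5.39 and 5.60 in WT livers, a change of -0.53 (SE 0.13, adjusted p = 0.007 in limma). A second, dimmer Psmb8 probe gave -0.23. For Psma5 the values were 10.24, 10.45, 10.54, 10.59 and 10.88 in KO SAMe livers and 10.90, 11.03 and 11.16 in WT livers, without overlap, a change of -0.49 (SE 0.10, adjusted p = 0.0018 in limma). Psma5 and Psmb10 were the 2 genes whose KO SAMe arrays all lay below the WT arrays, against 2.62% of all genes, and in 0 they all lay above, against 3.54%. Psmd10 changed by -0.44 (SE 0.12, adjusted p = 0.016 in limma, and 0.066 without KO SAMe array 2). Psmb7 changed by -0.34 (adjusted p = 0.029 in limma), lost without KO SAMe array 2 or 3 or WT array 3 or 6 (adjusted p 0.054 to 0.11), and its other probes gave -0.24 to -0.75. Psme1 read 9.69, 9.78, 9.99, 10.16 and 10.17 in KO SAMe livers and 10.03, 10.26 and 10.43 in WT livers, a change of -0.31 (adjusted p = 0.029 in limma), lost without KO SAMe array 3 or 4 or WT array 3 (adjusted p 0.053 to 0.11).

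Of the 4 genes with the lowest changes in KO placebo livers, Psmd10 and Psmb10 passed here too and Psma7 and Psmg3 did not. Differences between these genes were not tested. Both comparisons share their WT arrays, so WT arrays that read high by chance lower both. Psma7 was 9.60 to 10.20 in KO SAMe livers and 9.96 to 10.50 in WT livers (change -0.25, SE 0.13, adjusted p = 0.19), and Psmg3 was 7.03 to 7.49 in KO SAMe livers and 7.26 to 7.74 in WT livers (change -0.25, SE 0.14, adjusted p = 0.23). Psme3 read 6.43 ± 0.18 in KO SAMe livers (SD, n = 5) and 6.43 ± 0.32 in WT livers (SD, n = 8), a change of 0.00 (SE 0.14). Psmg2 had the highest change, 0.34 (adjusted p = 0.051, and 0.036 to 0.048 without WT array 5, 6 or 7). Over the core the median per array was -0.32 to -0.05 on the KO SAMe arrays and -0.11 to 0.13 on the WT arrays, overlapping at 1 KO SAMe array. The immunoproteasome mean minus that of Psmb6 and Psmb7 was -0.25 to 0.12 on the KO SAMe arrays and -0.11 to 0.33 on the WT arrays. Blocked on the background set 8 passed, all lower (Psma2 and Psmg3 besides the 6), and within the low-background arrays 5, all lower, against 17.8% and 14.9% of all genes. With the letter of the animal ID as a block 3 passed, all lower (Psma5, Psmb8 and Psme4), against 12.6% of all genes. There the calls of Psmb7 (-0.41), Psmb10 (-0.44), Psmd10 (-0.45) and Psme1 (-0.29) were lost, with adjusted p from 0.054 to 0.15.

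Other genes of the ubiquitin-proteasome pathway can be set beside the subunits. Of 36 listed ubiquitin-proteasome genes other than the subunits 18 were measured, and in KO placebo against WT livers 7 rose and 0 fell, against 19.8% higher and 20.4% lower among all genes, with a median of 0.23. In the low-background arrays 4 rose and 0 fell, against 18.3% of all genes that passed in either direction. With the letter block 0 passed in limma (3 at an unadjusted p under 0.05), against 0.499%. Nfe2l1, which encodes the transcription factor named above, read 7.79, 8.06 and 8.31 in KO placebo livers and 6.59, 7.03 and 7.42 in WT livers, with no overlap, a change of 1.0 (SE 0.12, adjusted p = 1.7e-06 in limma). The array measures its transcript and not the protein, which is controlled after translation. Ubqln1, which encodes a shuttle that brings ubiquitinated proteins to the proteasome, read 8.37, 8.97 and 9.50 in KO placebo livers and 7.78, 8.03 and 8.17 in WT livers, a change of 1.01 (SE 0.14, adjusted p = 5.3e-06 in limma). Syvn1, the gene of a ubiquitin ligase of the endoplasmic reticulum, changed by 1.45 (SE 0.21, adjusted p = 1.4e-05 in limma), and Rad23b, the gene of another shuttle, by 0.43 (SE 0.10, adjusted p = 0.001 in limma).

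**Figure D5:**
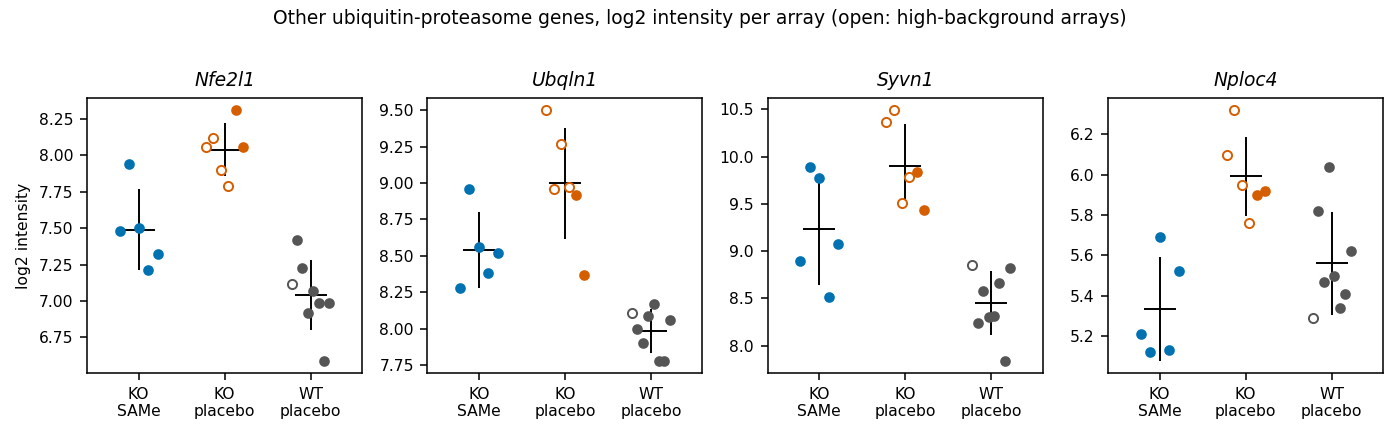
Log2 intensity of Nfe2l1, Ubqln1, Syvn1 and Nploc4 on each array, with KO SAMe left, KO placebo middle and WT placebo right, bars at the mean ± SD and open points for high background. For Nfe2l1, Ubqln1 and Syvn1 every KO placebo array lies above every WT array.

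In KO SAMe against KO placebo livers 0 of the 18 rose and 4 fell, against 10.8% higher and 7.69% lower among all genes, with a median of -0.27. With the background block 3 fell (median -0.18), against 9.26% of all genes that passed in either direction. In limma 0 passed in the low-background arrays (4 at an unadjusted p under 0.05, median -0.20), against 0.702%. With the letter block 0 passed in limma (3 at an unadjusted p under 0.05, median -0.08), against 0.00923%. Nfe2l1 read 7.21, 7.32, 7.48, 7.5 and 7.94 in KO SAMe livers, against 7.79, 8.06 and 8.31 in KO placebo livers, a change of -0.55 (SE 0.14, adjusted p = 0.0088 in limma). Nploc4, a cofactor of the unfoldase encoded by Vcp, read 5.12, 5.13, 5.21, 5.52 and 5.69 in KO SAMe livers, all below the 5.76, 5.94 and 6.32 of the KO placebo livers, a change of -0.66 (SE 0.14, adjusted p = 0.0028 in limma). Herpud1, whose protein works with that of Syvn1, changed by -0.54 (SE 0.12, adjusted p = 0.0039 in limma, and 0.078 when blocked on the background set), and Ubqln1 by -0.46 (adjusted p = 0.041 in limma), a call lost without any 1 of KO placebo arrays 1 to 4 or KO SAMe arrays 1, 3, 4 and 5 (adjusted p 0.057 to 0.11) and under that block (-0.21, adjusted p = 0.49). In KO SAMe against WT livers 5 of the 18 were higher and 0 lower, against 9.49% and 8.09% of all genes (median 0.06). Ubqln1 alone of the 18 passed with the letter block, against 12.6% of all genes. Of the 5 that were higher, Ubqln1 changed by 0.56 (adjusted p = 0.011 in limma). Nfe2l1 changed by 0.45 (adjusted p = 0.019 in limma, and 0.086 without KO SAMe array 2). Syvn1 changed by 0.78 (adjusted p = 0.02 in limma, and 0.077 and 0.086 without KO SAMe array 2 or 3). Vcp changed by 0.33 (adjusted p = 0.04 in limma), lost without KO SAMe array 2 or 3 or WT array 1, 3, 5, 6 or 7 (adjusted p 0.055 to 0.15).

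Of 21 listed genes of class I antigen presentation and the interferon response, the setting in which the immunoproteasome works, 17 were measured. In KO placebo against WT livers 4 rose and 1 fell, against 19.8% higher and 20.4% lower among all genes, with a median of 0.30. With the background block 2 were higher and 1 lower, against 36.2% of all genes that passed in either direction. In the low-background arrays 1 was higher and 1 lower, against 18.3%. With the letter block 0 passed in limma (4 at an unadjusted p under 0.05), against 0.499%. Usp18, which encodes a brake on interferon signalling, changed by 1.35 (SE 0.14, adjusted p = 2.2e-07 in limma). B2m, the light chain of class I molecules, read 11.99 to 12.38 in KO placebo livers and 11.04 to 11.88 in WT livers, a change of 0.57 (SE 0.12, adjusted p = 0.00048 in limma) that was 0.34 in the low-background arrays alone (adjusted p = 0.099). Irgm1, an interferon-induced GTPase, changed by 0.49 (adjusted p = 0.004 in limma, and 0.057 at 0.38 when blocked on the background set). The 1 that fell was Ube2l6, the conjugating enzyme of the ubiquitin-like protein ISG15, at -0.59 (SE 0.11, adjusted p = 0.00016 in limma). In KO SAMe against KO placebo livers 0 rose and 2 fell, against 10.8% and 7.69% of all genes, B2m by a log2 change of -0.45 (adjusted p = 0.021 in limma) and Gbp3, an interferon-induced GTPase, by -0.60 (adjusted p = 0.03 in limma). Both calls were lost without KO placebo array 1 or 2, and further without KO SAMe array 3 for B2m and KO SAMe array 1, 4 or 5 for Gbp3 (adjusted p 0.053 to 0.079 over both). With the background block Gbp3 did not pass (-0.56, adjusted p = 0.14), B2m did (adjusted p = 0.047), and Ube2l6 passed as higher (0.51, adjusted p = 0.028). In limma 0 of the 17 passed in the low-background arrays (5 at an unadjusted p under 0.05), against 0.702% of all genes. With the letter block 0 passed in limma (2 at an unadjusted p under 0.05), against 0.00923%. In KO SAMe against WT livers Usp18 was the 1 gene of the 17 that passed, at 1.28 (SE 0.15, adjusted p = 4.3e-06 in limma). Among all genes 17.6% passed. The 12 macrophage and dendritic-cell markers averaged 5.80 in KO SAMe livers, 6.23 in KO placebo livers and 5.98 in WT livers, and their part in these results was not tested.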

How the data were processed

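The authors deposited mean bead intensities, neither background corrected nor normalized, with a detection p-value for each probe and array, and a table of log2 values for 17592 probes. Recomputing the deposited log2 values from the intensities showed them to be the quantile-normalized log2 of the raw signal. The slide and the scan of each array are unknown here. RNA was extracted from liver and amplified with biotin, per the labels' protocols.

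Intensities were corrected with limma 3.58.1 (R 4.3.3) by normexp from the detection p-values (offset 16), then quantile normalized as log2, which hides any shift common to most genes. The 14295 probes with detection p below 0.05 on 5 or more arrays were used, and each gene was read by its probe with the highest mean. Of the 38 genes described, 14 had several probes, whose changes differed over 1.5-fold in 2, 3 and 0 genes in the order of the comparisons given. Where that touches a named gene, its probes are given. For Psmg2 in KO SAMe against KO placebo livers they gave 0.27 at the probe used and -0.02 and -0.32 at the others. All comparisons came from a single limma model (lmFit, eBayes, two-sided tests) of the 19 arrays, with p-values adjusted by Benjamini-Hochberg over all 10831 genes. The number of arrays limits the precision.

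The genes, lists and tests were chosen with earlier results of these data known, so counts over the 38 are descriptions without a test of the list. In each comparison and role up to 3 genes with the largest moderated t were named, with the immunoproteasome, PA28 and protease subunits throughout, and up to 4 genes of each other list. Psme3ip1 was set apart after the annotation was seen. Replicate numbers follow the order of deposition. The fit was also run on simulated data with independent noise. Those data held neither background sets nor letters, so that run does not bear on either. Alternatives changed the background correction, the scaling, the filter, the probe rule, blocks for the background set and the letter of the animal ID, and left out each array in turn.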

Additional observations from a re-analysis of the deposited data

Results flagged for a closer look

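Of 156 groups of arrays checked, 6 had 1 array far from the rest by Dixon's test, and chance flags about 1 in 20. In WT livers replicate 1, the WT array with high background, was the highest for Psmc1 (7.47, next 7.11), Psmd11 (5.76, next 5.38) and Psmd8 (9.08, next 8.52). WT replicate 5 was the highest for Psmd9 (5.09, next 4.65), and WT replicate 3 the lowest for Ube2l6 (5.68, next 5.90). In KO SAMe livers replicate 4 was the lowest for Herpud1 (11.24, next 11.77). All values are log2 intensities.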

How the results depend on the processing

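No paired analysis was possible because the labels give no replicate numbers shared between groups. Values below are for KO placebo against WT, then KO SAMe against KO placebo, then KO SAMe against WT. The cause of a difference between settings was not tested, also where an alternative has fewer arrays. Leaving out 1 array at a time gave 17 to 23, 3 to 11 and 4 to 8 calls among the 38 genes, with medians of -0.25 to -0.19, 0.10 to 0.15 and -0.18 to -0.09. In the first comparison the median was -0.14 with no background correction and with the deposited log2 values, -0.11 scaled to all probes, -0.49 scaled to the detected probes and -0.39 in the high-background arrays alone, a setting chosen after the data were seen. That setting has 4 KO placebo arrays and only 1 WT array. The first comparison had 8 calls in the low-background arrays, where 2 KO placebo arrays remain. In the second, the median was -0.14 scaled to all probes, 0.23 scaled to the detected probes and 0.04 with the letter block. There were 14 calls scaled to the detected probes, 3 when blocked on the background set and 0 in the low-background arrays. In the third there were 11 calls scaled to the detected probes and 3 with the letter block. In limma the letter block left 0 calls in the first comparison (5 of 38 at an unadjusted p under 0.05) and 0 in the second (2 of 38). Under that block the median of the first comparison was -0.28. The mean immunoproteasome difference from the constitutive subunits, -0.12 in KO SAMe livers, was 0 with normexp without controls and 0.03 with no correction and with the deposited values. In KO placebo livers it was 0.06, and 0.28 under both median scalings. In the first comparison Psmb8 turned to 0.02 and Psmd7 to 0.26 scaled to all probes, Herpud1 to -0.02 scaled to the detected probes, and Psmd11 to -0.13 and Nploc4 to -0.22 with the letter block. Signals near background limit Psma8, Psmb8, Psmd5, Psmd9 and Psme2.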

Other observations

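Many of these genes are bright, and bright genes pass the test more often. With a limit chosen after the data were seen, a mean log2 of at least 8, 14 of 23 such proteasome genes were lower and 0 higher in KO placebo against WT livers, with a median of -0.30. Among all 1707 genes above that limit 580 were lower and 455 higher, with a median of -0.06. In KO SAMe against KO placebo livers 6 of the 23 were higher and 0 lower, against 325 higher and 160 lower of the 1707. The medians were 0.16 for the 23 and 0.06 for the 1707.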
